A study of Gallus gallus with 24 samples.

Results

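The open eyes of chicks killed 3 d after goggle fitting were compared with the open eyes of other chicks killed 6 h after it, so that the retina and pigment epithelium of the young chick are described over 3 d without a goggle on the eye that was measured. The rule took every open-eye array, which gave 12 of the 24 arrays of the series, 6 at each time and 1 eye per array. At 1 week of age a goggle was glued under ether over 1 eye of each white Leghorn chick at light onset, on alternate sides, and the birds lived under 12 h of light and 12 h of darkness. The groups were the open eyes at 3 d (n = 6), the open eyes at 6 h (n = 6) and, used as a second set, the goggled fellow eyes of the same chicks at 3 d (n = 6) and at 6 h (n = 6). Retina and pigment epithelium were dissected together and RNA was hybridised to Affymetrix chicken genome arrays, which report a linear signal intensity for each probe set.

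All chicks of both groups carried a goggle on the other eye and had been under ether, so these were fellow eyes and not eyes of untreated birds. The labels do not state the clock hour of the 3 d collection. Age, hour of collection, time since ether and handling, and any batch of arrays therefore cannot be told apart in this comparison. The labels call the 6 samples of a group separate eyes of different chicks, and fewer cells of a type and less RNA per cell cannot be told apart in such bulk tissue.

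The vertebrate retina turns light into nerve signals in rods and cones, where light lowers cyclic GMP and closes cation channels, and calcium-dependent feedback restores the cyclic GMP. Bipolar, horizontal and amacrine cells pass the signal to ganglion cells, and the pigment epithelium behind the photoreceptors recycles retinoid, takes up shed outer segments and moves lactate and ions towards the choroid. The chick retina is cone-rich and works at hatching, yet the eye grows and its outer segments are renewed in the following weeks. Chick photoreceptors also hold a circadian clock that drives melatonin synthesis at night, so that hour of collection can matter for many transcripts.

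Of 19 array measures compared between the times, the first principal component of the tested probe sets passed the adjusted test (exact permutation p = 0.00216, adjusted p = 0.0411) and the others did not. Median array signal averaged 35.6 ± 2.68 (SD) over the 6 arrays at 3 d and 40.4 ± 3.41 over those at 6 h (exact permutation test, two-sided, p = 0.0281, Benjamini-Hochberg adjusted p = 0.134 over 19 array measures), and the 3 highest of the 12 medians belonged to 6 h replicates 2, 5 and 6, at 43.9, 43.4 and 42.4. The ratio of the 3' to the 5' control probe sets of GAPDH, a sign of RNA integrity, was 0.863 ± 0.0221 at 3 d and 0.915 ± 0.0258 at 6 h (exact permutation p = 0.00649, adjusted p = 0.0617), while that of actin was 3.69 ± 0.224 at 3 d and 3.46 ± 0.878 at 6 h (exact permutation p = 0.565). Of the marker sets, that of rods and cones had a mean log2 signal of 9.97 ± 0.158 at 3 d and 9.77 ± 0.124 at 6 h (exact permutation p = 0.0216, adjusted p = 0.134), and the choroid, sclera and vessel set had 6.17 ± 0.693 at 3 d and 6.22 ± 0.621 at 6 h (exact permutation p = 0.775). HINTW, a gene of the female-specific W chromosome, was high in 4 of 6 arrays at each time. The first principal component held 19.5% of the variance and mostly rose with median array signal within each time. At 3 d it was -29.3 in the array of lowest median (33.3) and -6.93 in that of highest median (40.1). At 6 h it was -3.60 at the lowest median (35.6) and 35.3 at the highest (43.9). Its difference between the times was not tested apart from that of the median signal. The part of these measures in the gene results was not tested, except where values are given.

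Of 26907 probe sets tested, 909 (3.38%) differed between 3 d and 6 h at an adjusted p under 0.05 in limma's moderated test on log2(signal + 16). Of these, 254 (0.944% of all tested) were higher and 655 (2.43%) were lower at 3 d. Over all tested, 5470 had an unadjusted p under 0.05, against 1345 by chance. Each gene was then represented by its brightest probe set, which gave 258 of 11116 genes called (2.32%), 97 higher (0.873%) and 161 lower (1.45%). In 165 genes (1.48%) all 6 arrays at 3 d lay above all 6 at 6 h, and in 173 (1.56%) below. In 192 of the 258 called genes, 61 higher and 131 lower, each other bright probe set of the gene differed in the same direction or there was none, and in 66 it did not. The median absolute log2 difference of the called probe sets was 0.58.

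The count and its split by direction depended on the processing. After quantile normalization 663 were called, 277 higher and 386 lower, and after centring each array on its median 1200 were called, 939 higher and 261 lower. The median used for centring was that of all 38439 probe sets other than controls, including the dim ones left out of the test. Centring moved the median log2 difference of all tested probe sets from -0.05 to 0.07. All 909 kept their sign under both. For centring this was fixed in advance, since centring shifted each difference by 0.13 and the smallest absolute difference called was 0.29. Of the 909, 431 (201 higher and 230 lower) were called under all 3 scalings. The split also followed signal. With the tested probe sets in 4 bins of near equal size by signal, the dimmest bin held 9 higher and 129 lower calls, the second 17 and 255, the third 77 and 180, and the brightest 151 and 91. The median signal was 362 for the higher calls and 71.0 for the lower calls, against 87.8 for all probe sets tested. Called or not, the probe sets of the 4 bins had median log2 differences of -0.13, -0.12, -0.02 and 0.04, from dimmest to brightest. After quantile normalization these medians were -0.02, -0.008, 0.01 and 0.008.

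Single arrays also moved the count, as the plot of calls by setting shows. It fell to between 337 and 397 without any 1 of 6 h replicates 1, 2, 5 and 6, to 439 to 581 without any 1 of 3 d replicates 1, 3, 4 and 5, and was 663 to 942 without any 1 of the other arrays. Without the 3 arrays of highest median, 6 h replicates 2, 5 and 6, no probe set was called by limma. There 3650 still had an unadjusted p under 0.05, the smallest adjusted p was 0.103, and all 909 kept their sign with a median absolute log2 difference of 0.55. Without the array richest in choroid, sclera and vessel markers at each time, 3 d replicate 2 and 6 h replicate 5, 68 were called (14 higher and 54 lower), and all 909 kept their sign. The 909 were chosen on all 12 arrays, most of which these fits reuse, so the kept signs and sizes are no independent support. Unless another setting is named, a call is one over all 12 arrays.

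**Figure D1:**
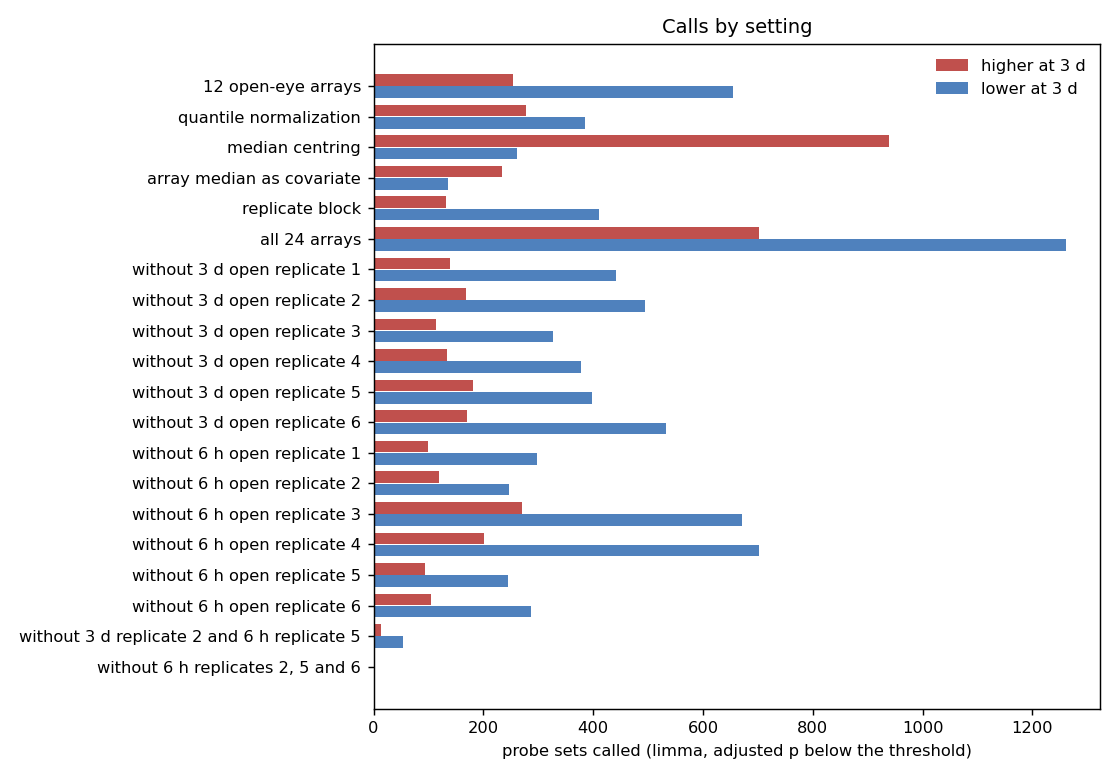
Number of probe sets called (horizontal axis, from 0) higher at 3 d (red) and lower at 3 d (blue) in open eyes, for the 12 arrays and for other settings named on the vertical axis. The 12 arrays gave 254 higher and 655 lower calls, median centring turned the split to 939 and 261, and no call was left without 6 h replicates 2, 5 and 6.

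Among the 12 genes with the largest rises at 3 d were 2 of the rod phototransduction list. GUCA1A also stands in the joint list of rod and cone markers, so its call cannot be assigned to rods alone. GUCA1A encodes a guanylate cyclase activator, the calcium sensor that turns cyclic GMP synthesis back on after light. Its signal was 1256 to 2214 (median 1744) at 3 d and 769 to 1735 (median 988) at 6 h, a log2 difference of 0.75 ± 0.18 (SE), adjusted p = 0.0426. The ranges overlapped, since 6 h replicate 3 stood at 1735, far above the other arrays at 6 h, but 4 of 6 arrays at 3 d lay above every array at 6 h. A second probe set of GUCA1A differed by 0.78 ± 0.20 (SE), adjusted p = 0.0466. CNGB1, the beta subunit of the rod cyclic GMP-gated channel, had 123 to 202 (median 143) at 3 d and 64.3 to 111 (median 94.5) at 6 h, with no overlap (0.67 ± 0.14 (SE), adjusted p = 0.0212). GUCA1A was called in 2 of the 12 fits without 1 array and CNGB1 in 12, and after quantile normalization GUCA1A was just short of the threshold (adjusted p = 0.0506).

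Of the 15 tested rod phototransduction genes these 2 rose and none fell, against 0.873% higher and 1.45% lower of all genes tested. This list and those below were chosen with earlier results of these data known. Their counts beside the shares of all genes are therefore a description and no independent support. The list's median was 0.18 against -0.02 over all genes, and 10 of the 15 had a higher mean at 3 d, against 46.4% of all genes. PDE6B, a catalytic subunit of the rod phosphodiesterase, was 296 to 611 (median 468) at 3 d and 277 to 402 (median 312) at 6 h and missed the threshold (0.50 ± 0.16 (SE), adjusted p = 0.0975). None of the 12 cone phototransduction genes passed in limma and 5 had an unadjusted p under 0.05 (18.0% of all genes tested did), while 10 had a higher mean at 3 d and the median was 0.22. ARR3, the cone arrestin that quenches activated opsin, was 4686 to 7669 (median 5012) at 3 d and 3052 to 4911 (median 3951) at 6 h (0.48 ± 0.14 (SE), adjusted p = 0.0795). Its much dimmer second probe set differed by 0.05 (adjusted p = 0.901). PDE6C, the cone phosphodiesterase, had 1122 to 1765 (median 1535) at 3 d and 920.1 to 1196 (median 1141) at 6 h (adjusted p = 0.0517), and 5 of 6 arrays at 3 d lay above every array at 6 h. Of the 22 rod and cone markers 1, GUCA1A, was called, with a median of 0.24. The rod list's median was 0.11 after quantile normalization, 0.30 after centring and 0.16 without the 3 arrays of highest median. That of the cone list was 0.18, 0.35 and 0.16, and that of all genes tested 0.01, 0.11 and -0.01. Centring raised every difference by the same amount, so a positive median had to stay positive there.

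**Figure D2:**
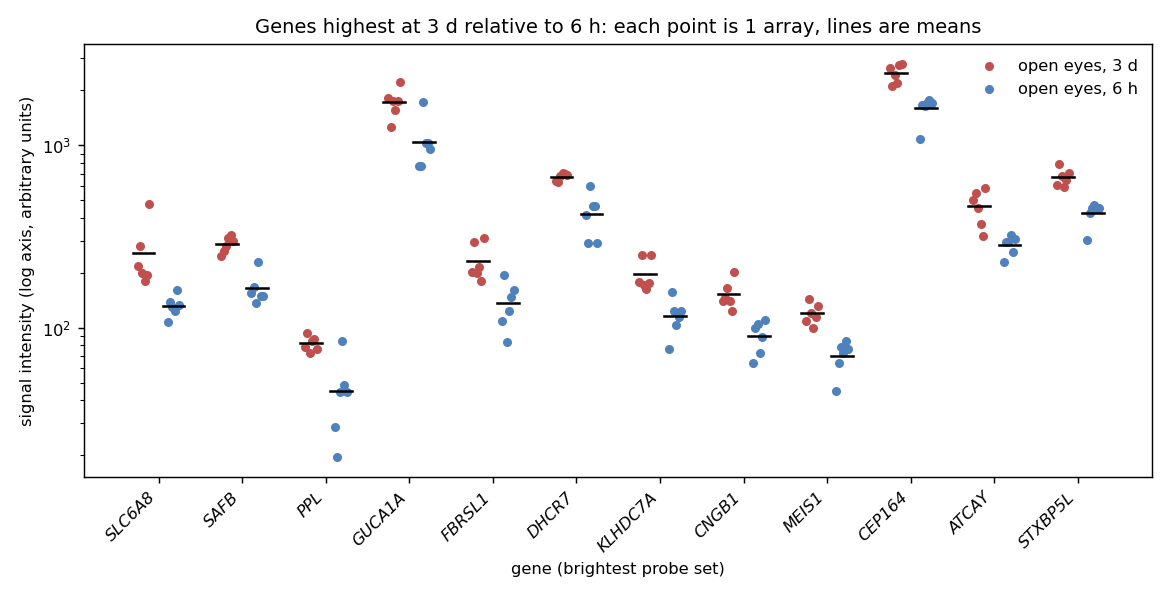
Signal intensity (log axis, arbitrary units) of the brightest probe set of 12 genes in open eyes. Red (left) is 3 d and blue (right) is 6 h. These genes had the highest log2 difference among called genes with agreeing bright probe sets and a mean above background in the higher group. Points are arrays and lines are means of 6 arrays. CEP164 is the brightest, at 2121 to 2801 at 3 d and 1082 to 1764 at 6 h, and the ranges of SLC6A8, SAFB, DHCR7, KLHDC7A, CNGB1, MEIS1, CEP164 and STXBP5L do not overlap.

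CPLX4, STXBP5L, CEP164 and ATCAY were also higher at 3 d. CPLX4, a complexin of photoreceptor ribbon synapses that controls vesicle release, was 2016 to 2568 (median 2470.3) at 3 d and 1456 to 1784 (median 1506) at 6 h. All 6 arrays at 3 d lay above all 6 at 6 h, the log2 difference was 0.60 ± 0.09 (SE) (adjusted p = 0.0117), and the gene was called in all 12 fits without 1 array. Among 21 synaptic vesicle and synapse genes it was the 1 that passed, against 0.873% of all genes called higher. Of the 21, 16 had a higher mean at 3 d, against 46.4% of all genes. STXBP5L, a tomosyn that holds back vesicle fusion, had 592 to 788 (median 659.9) at 3 d and 303 to 469 (median 450.2) at 6 h (0.64 ± 0.12 (SE), adjusted p = 0.0144). CEP164, a protein of the centriole's distal appendages from which a cilium grows, reached 2121 to 2801 (median 2536) at 3 d and 1082 to 1764 (median 1679) at 6 h (0.65 ± 0.13 (SE), adjusted p = 0.0187). Its second probe set differed by 0.40 and was not called (adjusted p = 0.0947). ATCAY, a protein of neurons, rose with 319.8 to 583 (median 480.1) at 3 d and 231 to 322 (median 297) at 6 h, which met in 1 array (0.65 ± 0.14 (SE), adjusted p = 0.0286), and 2 of its 6 probe sets were called. The others, all above background, differed by 0.22, 0.27, 0.006 and 0.012.

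The other genes among the 12 highest held other roles. SLC6A8, the creatine transporter, feeds the phosphocreatine energy store of photoreceptors and neurons. It had the highest difference of these 12, with 181 to 478 (median 209) at 3 d and 107 to 161 (median 131) at 6 h (0.82 ± 0.19 (SE), adjusted p = 0.0365). In 1 array at 3 d it stood at 478, and it was called in 3 of the 12 fits without 1 array. SAFB, a nuclear RNA- and DNA-binding protein, was 246 to 321 (median 289) at 3 d and 136 to 228 (median 152) at 6 h, apart in every array (0.76 ± 0.12 (SE), adjusted p = 0.0114). MEIS1, a homeobox transcription factor, had 100.3 to 143 (median 118) at 3 d and 45.0 to 84.6 (median 74.8) at 6 h (0.67 ± 0.13 (SE), adjusted p = 0.0163). PPL, the cytoskeletal linker periplakin, was 72.4 to 93.8 (median 81.3) at 3 d and 19.5 to 85.1 (median 44.7) at 6 h (0.75 ± 0.19 (SE), adjusted p = 0.0478), and its ranges overlapped through 1 array at 6 h at 85.1. Its other, dimmer probe set differed by 0.05. FBRSL1 and KLHDC7A rose by 0.72 and 0.70 on the log2 scale. In FBRSL1, KLHDC7A, SLC6A8, MEIS1, ATCAY and STXBP5L the 2 highest arrays at 3 d were replicates 2 and 6. These also had the highest median array signal at 3 d (37.6 and 40.1). In GUCA1A and CEP164, by contrast, replicate 2 was the lowest array at 3 d. No fit left out both of these arrays. Of the 12 fits without 1 array, PPL was called in 1 (adjusted p from 0.0112 to 0.0985), FBRSL1 in 2, ATCAY in 5 and KLHDC7A in 8, while SAFB, MEIS1, CEP164 and STXBP5L were called in all 12.

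Lipid synthesis held 4 of the higher calls. Of 27 tested genes of cholesterol and fatty acid synthesis, 4 rose and none fell, against 0.873% and 1.45% of all genes tested. This list too was chosen with earlier results of these data known. A higher mean at 3 d was found for 16 of the 27, against 46.4% of all genes, and the list's median was 0.06. DHCR7, which makes the last step of cholesterol synthesis, was 632 to 705 (median 685) at 3 d and 289.8 to 601 (median 440.1) at 6 h, without overlap (0.70 ± 0.16 (SE), adjusted p = 0.0289). SREBF2, the transcription factor that turns on cholesterol synthesis genes, was 366 to 622 (median 423) at 3 d and 267 to 326 (median 311) at 6 h, also without overlap (0.58 ± 0.13 (SE), adjusted p = 0.0324). FADS2, a desaturase of long-chain polyunsaturated fatty acids, was 202 to 394 (median 295) at 3 d and 161 to 218 (median 198) at 6 h (0.57 ± 0.14 (SE), adjusted p = 0.0387). FASN, the fatty acid synthase, was 833 to 1200.2 (median 1004) at 3 d and 626 to 852 (median 731) at 6 h (0.45 ± 0.11 (SE), adjusted p = 0.0371), and its second probe set differed by 0.29 (adjusted p = 0.248). Of the others, FDPS differed by 0.39 and SC5D by 0.43 without passing (adjusted p = 0.124 and 0.194). In SREBF2, FDPS and SC5D the highest arrays at 3 d were again replicates 2 and 6, while in DHCR7 replicate 2 was the lowest at 3 d. The 4 calls were each called in 1 to 6 of the 12 fits without 1 array, and FASN was not called after quantile normalization (adjusted p = 0.0535).

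Of the pigment epithelium markers, SLC16A8 was higher at 3 d in the joint tissue of retina and pigment epithelium. It encodes the monocarboxylate transporter through which the epithelium passes lactate to the choroid, and it was 3358 to 4212 (median 3660.1) at 3 d and 2406 to 3198 (median 2745) at 6 h, all arrays apart (0.42 ± 0.10 (SE), adjusted p = 0.0362). TRPM3, a cation channel, was lower, with 153 to 242 (median 191) at 3 d and 263 to 308 (median 276) at 6 h, also apart (-0.51 ± 0.11 (SE), adjusted p = 0.0209). A dimmer second probe set of TRPM3 differed by -0.06 and was not called (adjusted p = 0.864). SLC16A8 was called in 3 of the 12 fits without 1 array, and TRPM3 in 12 but not after centring (adjusted p = 0.0719). Of 20 pigment epithelium markers these were the 1 higher and the 1 lower call, with a median of 0.15. None of 14 retinoid visual cycle genes passed in limma (4 at an unadjusted p under 0.05), with 12 of higher mean at 3 d and a median of 0.14. Of all genes tested, 0.873% were called higher and 1.45% lower, 46.4% had a higher mean and 18.0% an unadjusted p under 0.05. RBP4, the plasma retinol carrier, was 7954 to 12302 (median 9312) at 3 d and 6125 to 9697 (median 6762) at 6 h (adjusted p = 0.115), and TTR, its partner, 1239 to 4216 (median 2451) at 3 d and 904 to 3206 (median 2002) at 6 h (adjusted p = 0.535). Neither list of melanin synthesis genes (0 of 13 called, 3 at an unadjusted p under 0.05, median 0.14) nor of choroid, sclera and vessels (0 of 19, 1 at an unadjusted p under 0.05, median -0.08) held a call.

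Of 25 proteasome genes tested, 2 were called, in opposite directions, while 22 had a higher mean at 3 d and the median was 0.13 (0.04 without the 3 arrays of highest median). Over all genes tested, 0.873% were called higher and 1.45% lower, 46.4% had a higher mean and 18.0% an unadjusted p under 0.05. PSMD7, of the regulatory lid, was 1392 to 1493 (median 1439) at 3 d and 1150.2 to 1228 (median 1169) at 6 h (0.29 ± 0.08 (SE), adjusted p = 0.0494). A much dimmer second probe set of PSMD7 differed by 0.05 and was not called (adjusted p = 0.904). PSMA4, of the catalytic core's outer ring, was 1305 to 1514 (median 1386) at 3 d and 1581 to 2082 (median 1861) at 6 h (-0.38 ± 0.10 (SE), adjusted p = 0.043). Both were apart in every array, and each kept its call in 1 of the 12 fits without 1 array. PSMD7 was not called after quantile normalization (adjusted p = 0.0929), nor PSMA4 after centring (adjusted p = 0.198). The 61 cytosolic ribosomal protein genes and 53 of oxidative phosphorylation held no call in limma, with 7 and 8 at an unadjusted p under 0.05. Of the ribosomal genes 56 had a higher mean at 3 d and the median was 0.16, but it was -0.05 without the 3 arrays of highest median, and that of oxidative phosphorylation was 0.11 and -0.05.

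Among called genes with agreeing bright probe sets, those with the largest falls were dimmer. FAM219A had 159 to 283 (median 215) at 3 d and 328 to 543 (median 477) at 6 h, apart in every array (-1.06 ± 0.16 (SE), adjusted p = 0.00872), and its second probe set differed by -0.84 ± 0.15 (SE). ARRDC3, an alpha-arrestin that links membrane receptors to their turnover, was 30.7 to 67.9 (median 44.6) at 3 d and 70.5 to 142 (median 123) at 6 h (-1.03 ± 0.18 (SE), adjusted p = 0.0137). AEBP2, a cofactor of the Polycomb complex that methylates histone H3, had the smallest adjusted p among these genes (0.00476), with 243 to 292 (median 278) at 3 d and 420.4 to 576 (median 483) at 6 h, a log2 difference of -0.83 ± 0.10 (SE). All 4 of its probe sets were lower at 3 d, by 0.30 to 0.83 on the log2 scale. CERS1, a ceramide synthase, was 11.7 to 29.2 (median 20.9) at 3 d and 35.4 to 65.0 (median 57.0) at 6 h (-0.93 ± 0.16 (SE), adjusted p = 0.0137). DGKH, a diacylglycerol kinase, was 46.0 to 102 (median 75.8) at 3 d and 105 to 194 (median 146) at 6 h (-0.86 ± 0.16 (SE), adjusted p = 0.0144). The second probe sets of ARRDC3 and DGKH differed by -0.64 and -0.17, and neither was called (adjusted p = 0.13 and 0.728).

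**Figure D3:**
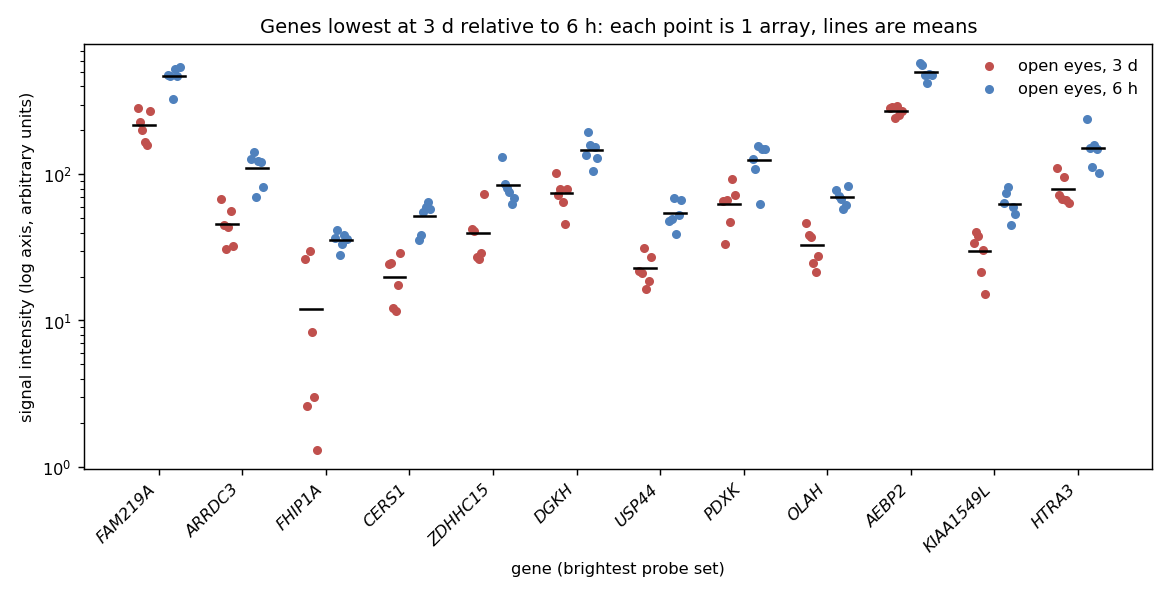
Signal intensity (log axis, arbitrary units) of the brightest probe set of 12 genes in open eyes. Red (left) is 3 d and blue (right) is 6 h. These genes had the lowest log2 difference among called genes with agreeing bright probe sets and a mean above background in the higher group. Points are arrays and lines are means of 6 arrays. Signals are mostly under 200, FHIP1A spreads most at 3 d, from 1.30 to 30, and FAM219A and AEBP2 are the brightest.

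The other genes among the 12 lowest were mostly dim as well. USP44, a deubiquitinase, was 16.3 to 31.4 (median 21.4) at 3 d and 38.9 to 68.6 (median 51.3) at 6 h (-0.85 ± 0.13 (SE), adjusted p = 0.00945), and 3 of its 4 probe sets were called. OLAH, the thioesterase that releases medium-chain fatty acids from the fatty acid synthase, was 21.4 to 46.7 (median 32.3) at 3 d and 57.6 to 83.9 (median 69.8) at 6 h (-0.84 ± 0.13 (SE), adjusted p = 0.0117). PDXK, the kinase that makes the active form of vitamin B6, was 33.2 to 93.3 (median 66.2) at 3 d and 63.0 to 156 (median 139) at 6 h, which overlapped (-0.84 ± 0.21 (SE), adjusted p = 0.0454). ZDHHC15, a palmitoyltransferase, was 26.3 to 73.7 (median 35.1) at 3 d and 62.7 to 132 (median 78.1) at 6 h (-0.86 ± 0.19 (SE), adjusted p = 0.029). HTRA3, a secreted serine protease, was 63.4 to 111 (median 69.8) at 3 d and 103 to 239 (median 150) at 6 h (-0.79 ± 0.18 (SE), adjusted p = 0.0314). KIAA1549L fell by 0.79 on the log2 scale. The second probe sets of ZDHHC15, HTRA3 and KIAA1549L differed by -0.34, -0.35 and -0.39, and none was called (adjusted p = 0.274, 0.202 and 0.657). FHIP1A was lower too (adjusted p = 0.0324) and was under the background of 17.3 in most arrays at 3 d. Of the 12 fits without 1 array, PDXK was called in 2, FHIP1A in 4, HTRA3 in 5 and ZDHHC15 in 7, and the other 8 of the 12 lowest genes in all. After quantile normalization FHIP1A (adjusted p = 0.0665), ZDHHC15 (0.054), PDXK (0.0632) and HTRA3 (0.0515) were not called, and after centring PDXK (0.0616) and HTRA3 (0.058) were not.

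Another 3 lists held 1 lower gene each. SLC6A11, a GABA transporter that clears the transmitter from the synapse, was 92.5 to 133 (median 113) at 3 d and 132 to 202 (median 159.6) at 6 h (-0.52 ± 0.12 (SE), adjusted p = 0.0316), and its dimmer second probe set differed by -0.84 ± 0.21 (SE). It was the 1 call among 21 GABA and glycine genes, each taken by its brightest probe set, against 1.45% of all genes called lower. A lower mean was found for 14 of the 21, against 5953 of all 11116 genes. Outside this count, a probe set of the GABA receptor gene GABRA2 was called lower (-0.81 ± 0.10 (SE), adjusted p = 0.00476). So was a probe set of the glycine receptor gene GLRB (-0.75 ± 0.10 (SE), adjusted p = 0.00629). Their other probe sets are not given here, so no direction is named for these genes. VCAN, the matrix proteoglycan versican, was at about background, with 6.8 to 21.2 (median 12.8) at 3 d and 19.2 to 32.5 (median 26.6) at 6 h (-0.51 ± 0.13 (SE), adjusted p = 0.0437), the 1 call among 30 matrix and protease inhibitor genes. LNPEP, a membrane aminopeptidase listed among 6 horizontal cell markers, was 14.0 to 30.9 (median 25.9) at 3 d and 33.5 to 72.8 (median 45.8) at 6 h (-0.59 ± 0.15 (SE), adjusted p = 0.0466). It went against most of that list. Of the 6 markers, 4 had a higher and 2 a lower mean at 3 d, with a median of 0.18 against -0.02 over all genes tested. VCAN and LNPEP were called in 2 of the 12 fits without 1 array each, and in neither of the other scalings (adjusted p = 0.137 and 0.0833 after quantile normalization, 0.135 and 0.0692 after centring), and SLC6A11 in 4 of the 12 fits.

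Clock and melatonin genes held no call. Of 19 circadian clock genes 0 passed by limma and 5 had an unadjusted p under 0.05 (18.0% of all genes tested did). PER3 was 59.3 to 144 (median 81.3) at 3 d and 45.9 to 69.0 (median 62.9) at 6 h (0.52 ± 0.17 (SE), adjusted p = 0.113). For CRY1, a repressor of the clock, the brightest probe set differed by -0.41 and the second by 0.25, so that no direction can be given to the gene. ARNTL, the clock's activator, was 433 to 489 (median 476) at 3 d and 478 to 622 (median 536) at 6 h (adjusted p = 0.221). PER2 was 273 to 439 (median 331) at 3 d and 276 to 422 (median 339) at 6 h in its brightest probe set (adjusted p = 0.935). Its 5 probe sets differed by -0.51 to 0.19, so no direction is given to PER2 either. The 4 probe sets of PER3 differed by 0.12 to 0.59 and the 4 of ARNTL by -0.42 to -0.21, and none was called. AANAT, the enzyme that sets melatonin synthesis, was 125 to 198 (median 138) at 3 d and 108 to 204 (median 137) at 6 h, ranges that overlapped almost in full. The melatonin list held 0 of 8 calls in limma and 1 gene at an unadjusted p under 0.05, with TPH2, which starts serotonin synthesis, at 60.4 to 85.4 (median 67.4) at 3 d and 81 to 120.3 (median 98.5) at 6 h (adjusted p = 0.0689).

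The glucocorticoid response, immediate early, neuropeptide, interferon and MHC, BMP and TGF-beta and blood lists were also without calls in limma. Of 37 heat shock and unfolded protein genes, 1 was called higher, HSP90B1, whose probe sets disagreed, against 0.873% of all genes tested. In that list 11 had an unadjusted p under 0.05 (18.0% of all genes did). Its lowest difference, -1.48, was not called and was also the lowest of all genes tested. At an unadjusted p under 0.05 stood 2 of 12 glucocorticoid response genes, 1 of 10 immediate early genes, 2 of 16 neuropeptides, 2 of 16 interferon and MHC genes, 6 of 28 BMP and TGF-beta genes and 1 of 10 blood markers, against 18.0% of all genes tested. Of the glucocorticoid response genes KLF9 had 279 to 471 (median 359.9) at 3 d and 329.9 to 616 (median 547) at 6 h (adjusted p = 0.0858), and NR3C2, the mineralocorticoid receptor, 157 to 259.5 (median 189) at 3 d and 224 to 339 (median 256) at 6 h (adjusted p = 0.0762). Of the immediate early genes, ATF3 differed by 0.35 and JUN by -0.25 (adjusted p = 0.199 and 0.246). Among the neuropeptides PENK, the enkephalin precursor of amacrine cells, was 3359 to 4182 (median 3774) at 3 d and 4372 to 4949.7 (median 4676) at 6 h without overlap, just short of the threshold (-0.32 ± 0.08 (SE), adjusted p = 0.0521). NMB was 60.1 to 76.4 (median 71.9) at 3 d and 78.0 to 120.4 (median 91.5) at 6 h, apart too (adjusted p = 0.0863). All 16 interferon and MHC genes had a lower mean at 3 d, but 4 of the 16 were higher after quantile normalization and 5 after centring. Their median was -0.26, -0.16 after quantile normalization and -0.14 after centring, and none was called. IFI6 was 11.5 to 79.2 (median 18.9) at 3 d and 26.6 to 160.0 (median 43.5) at 6 h (adjusted p = 0.415). Of the BMP and TGF-beta genes 5 had a higher mean (11 after centring) and 23 a lower one, while 46.4% of all genes tested had a higher mean. Their median of -0.15 was -0.02 after centring and -0.03 without the 3 arrays of highest median. The median of the blood markers was -0.28, with HBA1 at 417 to 3639 (median 1422) at 3 d and 802 to 4706 (median 1839.5) at 6 h (adjusted p = 0.724) and HBE, the embryonic beta-like globin, differing by -0.62. In all, 37 of the 51 lists held no call.

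**Figure D4:**
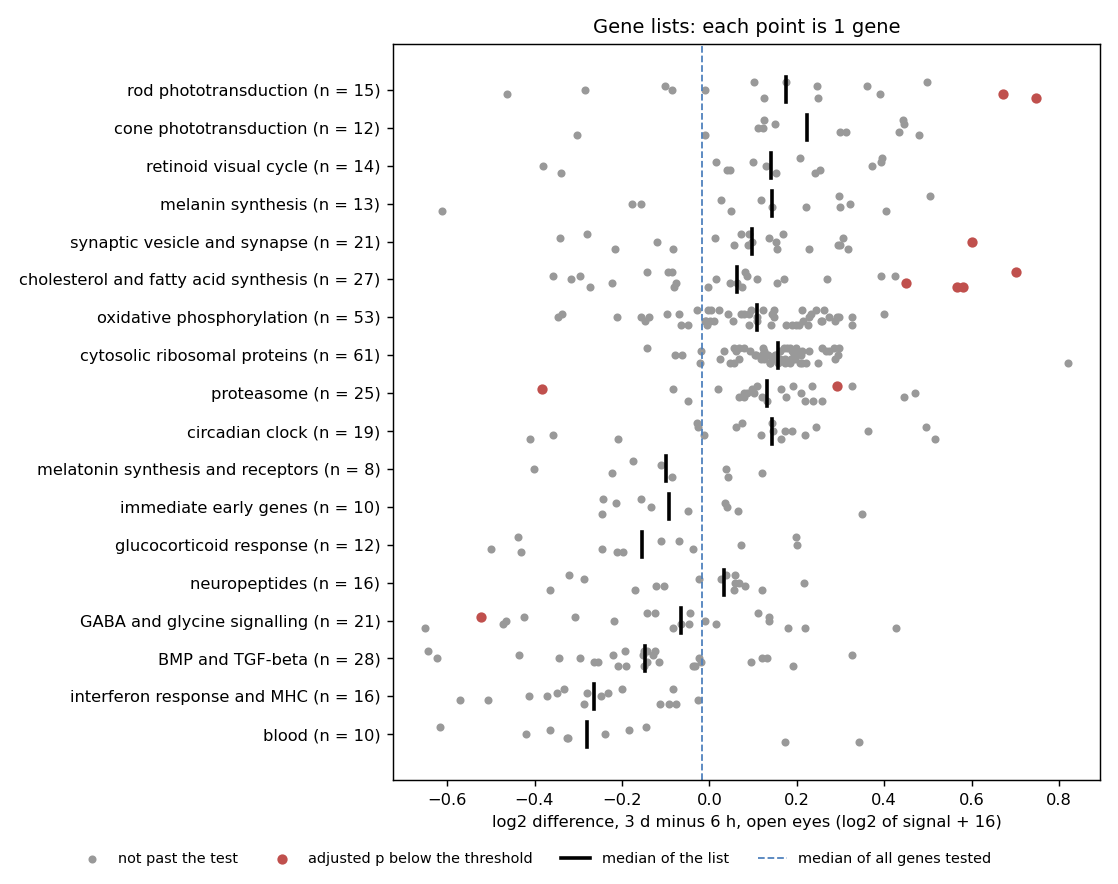
Log2 difference between 3 d and 6 h in open eyes (horizontal axis) of each tested gene of 18 of the 51 lists (rows), with called genes in red, other genes in grey, list medians as black bars and the median of all genes tested as a dashed line. Of these 18 lists the 10 called genes are spread over 5, with 4 of them in cholesterol and fatty acid synthesis, and all 16 interferon and MHC genes lie left of 0 in this scaling, where quantile normalization and centring turn 4 and 5 of them.

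Probe sets of some genes disagreed, so that no direction is given for these. SLC6A6, the taurine transporter, which the retina needs, had a brightest probe set at 273 to 412 (median 325) at 3 d and 379 to 876 (median 650.0) at 6 h (-0.91 ± 0.19 (SE), adjusted p = 0.0209). Another probe set of the gene was at 378 to 452 (median 394) at 3 d and 247 to 373 (median 299.5) at 6 h and was called higher (0.45 ± 0.11 (SE), adjusted p = 0.0404). ARHGEF37 had its brightest probe set at 5.3 to 15.9 (median 7.6) at 3 d, under the background of 17.3 in every array, and at 22.4 to 52.4 (median 37.6) at 6 h, so that the size of its difference is not measured. Another probe set of it differed by 0.07. PMFBP1 differed by -1.06, with 4.6 to 31.9 at 3 d partly under background, and by 0.01, and SEMA4G by 0.85 and by -0.17. SCN8A, a neuronal sodium channel, ran from -0.45 to 0.56 over 5 probe sets, HSP90B1, a chaperone of the endoplasmic reticulum, from -0.05 to 0.38 over 2, and GNAO1, the G protein of ON bipolar cells, from -0.09 to 0.68 over 2.

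Chosen after their values were seen, 2 genes show how far one probe set can stand from the rest. PTMA, a small acidic nuclear protein, held the smallest p-value of all: 1 of its probe sets was at 784 to 1759 (median 967) at 3 d and 3506 to 4720.0 (median 3819) at 6 h (-1.90 ± 0.17 (SE), adjusted p = 4.94e-04). The 3 other probe sets of PTMA differed by -0.09 to -0.06, and the brightest was at 2217 to 4053 (median 2867) at 3 d and 2506 to 3572 (median 3175) at 6 h (adjusted p = 0.807). In KBTBD3 3 of 4 probe sets were called lower, by up to -1.45, and the brightest was 70.5 to 96.7 (median 93.0) at 3 d and 97.8 to 140.4 (median 113) at 6 h, apart in every array but not called (-0.30 ± 0.10 (SE), adjusted p = 0.116). Of the 909 called probe sets, 176 had no single gene name, with none or several in the annotation. Of those with none and a mean above background in the higher group, the 3 largest log2 differences were -1.29, -1.16 and -1.14. The second of these probe sets was at 405 to 576 (median 503) at 3 d and 767 to 1536 (median 1282) at 6 h.

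The goggled eyes of the same chicks gave the same comparison a second time, though they share birds, hours and any batch with the open eyes. There 3416 probe sets (12.7%) were called between 3 d and 6 h in a fit over all 24 arrays, 1108 higher (4.12%) and 2308 lower (8.58%). Of the 909 calls in open eyes 902 had the same sign in goggled eyes and 704 were also called, which was 77.4% of the open-eye calls and 20.6% of the goggled-eye calls. These open-eye calls come from 12 arrays. In the fit over all 24 arrays the open eyes had 1963 calls, of which 1334 were also called with the same sign in goggled eyes, 68.0% of the open-eye and 39.1% of the goggled-eye calls. Among the 192 agreeing genes 191 had the same sign in goggled eyes, against 79.7% of all genes tested. The 192 were called in open eyes while most genes were not, so these shares are not a like comparison. CPLX4 differed there by 0.58 (adjusted p = 1.68e-04), GUCA1A by 0.70 (adjusted p = 0.0128), DHCR7 by 0.73 (adjusted p = 0.00289), AEBP2 by -0.84 (adjusted p = 4.47e-05) and FAM219A by -1.09 (adjusted p = 1.24e-04). Of the genes named as higher or lower, the highest adjusted p in goggled eyes were those of KIAA1549L, -0.32 (adjusted p = 0.19), VCAN, -0.22 (adjusted p = 0.269), and LNPEP, -0.09 (adjusted p = 0.736). No probe set differed between the open-eye and goggled-eye changes in limma's interaction test, and 617 had an unadjusted p under 0.05, against 1345 by chance. With arrays of equal number at a time taken as the eyes of 1 chick and entered as a block (replicate block), again 0 were called and 1149 had an unadjusted p under 0.05. That does not show that the changes were alike.

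**Figure D5:**
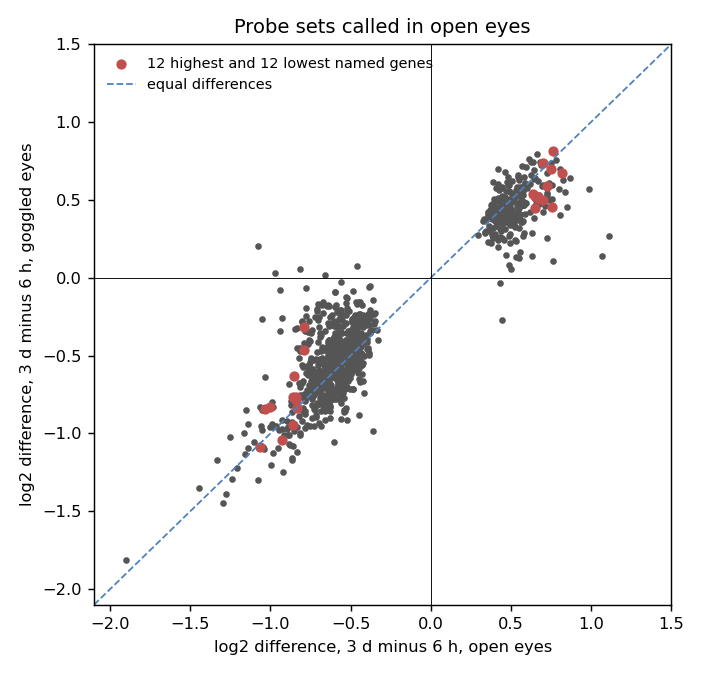
Log2 difference between 3 d and 6 h in goggled eyes (vertical axis) against that in open eyes (horizontal axis) for the 909 probe sets called in open eyes, with the 24 highest and lowest named genes in red and a dashed line of equal differences. The points were chosen by the horizontal axis, 902 of them have the same sign on both axes, and both eyes come from the same chicks.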

How the data were processed

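Signal intensities of 38535 probe sets on 24 arrays were used. The deposited intensity is linear, with a 2% trimmed mean near 150.03 on each array (read from the values). The submitters' processing notes name GCOS and RMA but assign neither to this table, so its software is unknown here. From these, 96 controls were removed, log2(signal + 16) was taken and probe sets under the 30th percentile (a signal of 13.8) were left out. Of 26907 tested, 20675 had 1 gene in the platform annotation, with names from RefSeq assembly GRCg7b. Background was the 95th percentile of 57 reporter probe sets (17.3); 4.94% of those tested were dimmer.

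Groups came from the labels. limma 3.58.1 (lmFit, eBayes) in R 4.3.3 fitted 2 means to 12 arrays, unpaired, with Benjamini-Hochberg adjustment over all probe sets at 0.05. Array measures got exact permutation tests. Number of arrays limits precision. In simulated data 16%, 56%, 76% and 94% of probe sets changed by 0.5, 0.75, 1 and 1.5 (log2) were called, with 6 unchanged ones. The simulated probe sets were independent, with 50 changed per size and no shift of whole arrays. The shares therefore need not hold for the real arrays. The members and lists (1155 genes in 51 lists, 968 on the array) were chosen with earlier results of these data known. Named were the 12 highest and 12 lowest called genes whose bright probe sets agree, passing list members, up to 2 others per list, and genes that disagree. CRY1, PER2, ARNTL, AANAT, PDE6C, PTMA, KBTBD3 and the probe sets of GABRA2 and GLRB were added after their values were seen. Plots used matplotlib 3.10.9 under Python 3.11.15.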

Additional observations from a re-analysis of the deposited data

Results flagged for a closer look

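In 170 groups of 6 arrays tested, 14 held 1 array that stood apart from the other 5 by Dixon's criterion; chance flags about 1 in 20. Values are log2(signal + 16). At 3 d these were LNPEP in replicate 3 at 4.91 (lowest), GNAO1 in replicate 6 at 8.55 (highest), KBTBD3 in replicate 5 at 6.43 (lowest), AANAT in replicate 6 at 7.74 (highest) and PDE6C in replicate 2 at 10.15 (lowest). At 6 h they were GUCA1A in replicate 3 at 10.77 (highest), PSMD7 in replicate 3 at 10.28 (highest), FAM219A in replicate 3 at 8.43 (lowest), CEP164 in replicate 1 at 10.10 (lowest) and STXBP5L in replicate 1 at 8.32 (lowest). Also at 6 h, PMFBP1 in replicate 4 was at 5.34 (lowest), KLF9 in replicate 4 at 8.43 (lowest) and IFI6 in replicate 5 at 7.46 (highest). The GAPDH 3' to 5' ratio of 3 d replicate 4 was 0.904, the highest of its group.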

How the results depend on the processing

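Calls (total, with higher and lower at 3 d) were 637 (179 and 458) without the filter, 1242 (457 and 785) with the 50th percentile, 670 (188 and 482) with an offset of 1, 1315 (461 and 854) with 50, 1270 (460 and 810) with trended robust variances, 1933 (520 and 1413) with array weights and 2111 (661 and 1450) at an adjusted p under 0.10. They were 1112 (348 and 764) with the W-linked signal and 725 (193 and 532) with the choroid marker mean as covariates, 1963 (702 and 1261) in the fit of all 24 arrays and 224 (85 and 139) with 1 probe set per gene, where fewer were tested. Quantile normalization gave 663 (277 and 386) and centring 1200 (939 and 261). A 1.2-fold minimum removed none. Chosen after seeing the data, the array median as covariate gave 370 (234 and 136), leaving out 6 h replicates 2, 5 and 6 gave 0 (0 and 0), and leaving out 3 d replicate 2 and 6 h replicate 5 gave 68 (14 and 54). Without 1 array each, totals ran from 337 to 942, higher from 93 to 271 and lower from 244 to 702. The causes were not tested.

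Replicate numbers were not taken as pairs across the times, since different chicks were used. The mean of its group was subtracted from each probe set, and the deviations of the arrays were correlated across the times. Those of same-numbered arrays correlated at -0.12 to 0.19 and 4 of 6 exceeded 0.1, with 3 of 6 best with their own number. Whether arrays of equal number shared a batch was not tested. The replicate block gave 543 calls (132 and 411). The interaction gave 0 calls under each alternative and without each array; unadjusted p under 0.05 was found for 607 after quantile normalization, 618 after centring, 1142 without the filter and 1149 with the replicate block. The array median difference was -5.72 to -4.06 and the actin ratio's 0.0232 to 0.545 without 1 array each (exact permutation p = 0.013 to 0.0563 and 0.039 to 0.996).

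Of the named genes' values, 1355 kept direction and side of the threshold, 363 lost the call, 40 gained it and 14 turned sign. Turned were PTMA (0.0457 with centring, 0.151 with the array median as covariate), PER2 (0.0985 with centring, 0.0806 without the 3 arrays of highest median, 0.0860 without the choroid-rich arrays, -0.104 to 0.0306 without 1 array each) and AANAT (-0.0589 with array weights, -0.0408 to 0.145 without 1 array each). Other probe sets turned for ARHGEF37 (0.0721 and 0.149), PMFBP1 (0.00656), SLC6A6 (0.20 and 0.45), SEMA4G (-0.17), SCN8A (-0.22, -0.45 and -0.11), HSP90B1 (-0.0512), GNAO1 (-0.0945), CRY1 (0.25) and PER2 (0.19).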
